A study of Danio rerio with 4 samples.

Results

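The vascular endothelial growth factor (VEGF) ligands *vegfaa*, *vegfab*, *vegfc* and *vegfd* and the receptors *kdrl*, *kdr*, *flt1* and *flt4* were examined in cryoinjured zebrafish ventricles that lack functional Cd74, the invariant chain of MHC class II. The members were taken as the rows of the gene table that carry these 8 names, out of 20984 genes, and were chosen for their part in coronary and lymphatic regrowth. All 8 were listed, and all 8 passed the minimum mean normalized count of 10 required for testing, as did 16065 genes in total. Bulk RNA-seq was done on single ventricles from 2 wild-type and 2 *cd74a; cd74b* mutant fish, all adult AB strain zebrafish with a cryoinjured heart and no other agent. The fish were 3 to 12 months old. Collection is placed at 5 days after cryoinjury in the study's text and at 7 days in the design text of the series. The mutants carry a small deletion in each of both genes, so the genotype rests on 1 allele per gene, and the wild types and mutants came from separate crosses to double heterozygotes. Each genotype had 1 female and 1 male, and the sex of a given library is not named, so sex and replicate cannot be told apart here.

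VEGF ligands are secreted proteins that bind receptor tyrosine kinases on endothelial cells. Vegfa drives sprouting and growth of blood vessels through Vegf receptor 2, which zebrafish carry as a pair of genes, *kdr* and *kdrl*. Flt1 binds Vegfa tightly and signals weakly, so it is known as a decoy that limits Vegfa activity. Vegfc acts on Flt4 in lymphatic and sprouting endothelium. In the injured zebrafish heart, coronary vessels regrow into the wound early, and lymphatic vessels spread over the ventricle.

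The receptor genes differed in direction. *kdr* was the only member that passed the adjusted threshold, and it fell to 42.6% of its wild-type mean. *kdrl* was at 99.8% of its own and overlapped between genotypes. *vegfaa*, *vegfab* and *flt1* were above both wild types in both mutants without passing the adjusted threshold, *flt4* was below both in the same way, and *vegfc* and *vegfd* overlapped between genotypes.

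The ventricles carried 4123819 to 4382529 normalized counts in total, and the targeted genes followed their labels (*cd74a* at 46.2% and *cd74b* at 19.1% of the wild-type mean). The markers of cardiomyocytes, endothelium and endocardium were present in every library. Erythrocyte and thrombocyte marker counts summed to 5301 and 7147 in wild types against 4533 and 4245 in mutants, with the most in the second wild type. Of the 11 rows tested, 6 lay lower in both mutants than in both wild types and 0 higher. Over all genes tested these shares were 29.4% and 30.5%. All 9 tested macrophage markers were lower in both mutants than in both wild types, as were 29.4% of all genes tested. Their summed normalized count was 5008 to 5455 in the wild types and 3399 to 3429 in the mutants. Of the 9, 3 were called lower (*mpeg1.1*, *mpeg1.2* and *csf1ra*), against 7.44% of all genes tested. For the 4 tested neutrophil markers, of which 2 were called lower, the range over all 5 listed was 644 to 852 against 391 to 402.

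A normalized count is the number of reads assigned to a gene after division by a factor for library size. Differences between genotypes are given as log2 fold changes of normalized count + 1, mutant minus wild type, from limma, a linear model fitted to all 16065 genes, with a standard error (SE) and a p-value adjusted over all of them by the Benjamini-Hochberg method. A gene was called when that adjusted p-value was under 0.05 and the log2 fold change at least 0.59 in size. With 2 ventricles against 2, an exact permutation test of 1 gene cannot give a p-value under 0.33, so every call rests on the spread that limma shares among genes. Exon lengths were not used here, so levels are compared within a gene and not between genes.

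*vegfaa* and *vegfab* encode the Vegfa ligands. *vegfaa* (ENSDARG00000103542, chromosome 16, 4287542 to 4317879, reverse strand, danRer11) had 296 and 258 normalized counts in wild-type ventricles, against 413 and 427 in mutant ones. Both mutants lay above both wild types, and the pair of mutants differed by less than the pair of wild types. The log2 fold change was 0.60 (SE 0.16, 95% interval 0.23 to 0.98), with a limma adjusted p-value of 0.0573 that missed the threshold. *vegfab* (ENSDARG00000034700, chromosome 4, 5568688 to 5597802, reverse strand) had 898 and 700 in wild types against 1056 and 1456 in mutants. The genotypes again did not overlap, but the spread within each was wide, with the second mutant well above the first. Its log2 fold change was 0.65 (SE 0.20, 95% interval 0.17 to 1.12, limma adjusted p-value 0.0829). The ratio of *vegfab* to *vegfaa* was 3.03 and 2.71 in wild types against 2.56 and 3.41 in mutants, so the balance between the ligand paralogs overlapped between genotypes.

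For both Vegfa genes and for *flt1*, the 4 ventricles fell in the same order. From lowest to highest this was the second wild type, the first wild type, the first mutant and the second mutant. Both mutants lay above both wild types for 30.5% of all genes tested, and the share with this exact order was not counted. The atrial myosin gene *myh6*, looked at after its values were seen, followed the reverse order, with 1352 and 3908 in wild types against 1250 and 154 in mutants. A second atrial gene, *nr2f1a*, had 167 and 362 in wild types against 264 and 182 in mutants and did not follow that order. The part of atrial tissue in these values was not tested.

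*vegfc* and *vegfd* encode the remaining ligands among the members. *vegfc* (ENSDARG00000069640, chromosome 1, 38850830 to 38908197, reverse strand) had 48 and 49 normalized counts in wild types against 47 and 57 in mutants. The mutants lay on either side of the wild types, and the log2 fold change of 0.09 (SE 0.31, 95% interval -0.64 to 0.82, limma adjusted p-value 0.870) leaves room for a change of moderate size in either direction. *vegfd* (ENSDARG00000056624, chromosome 11, 29889828 to 29916607, reverse strand) had 23 and 47 in the wild types, which enclosed the 37 and 29 of the mutants. Its log2 fold change was -0.01 (SE 0.46, 95% interval -1.08 to 1.06, limma adjusted p-value 0.993), and at these low counts a change of up to about that width was not detectable.

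**Figure D1:**
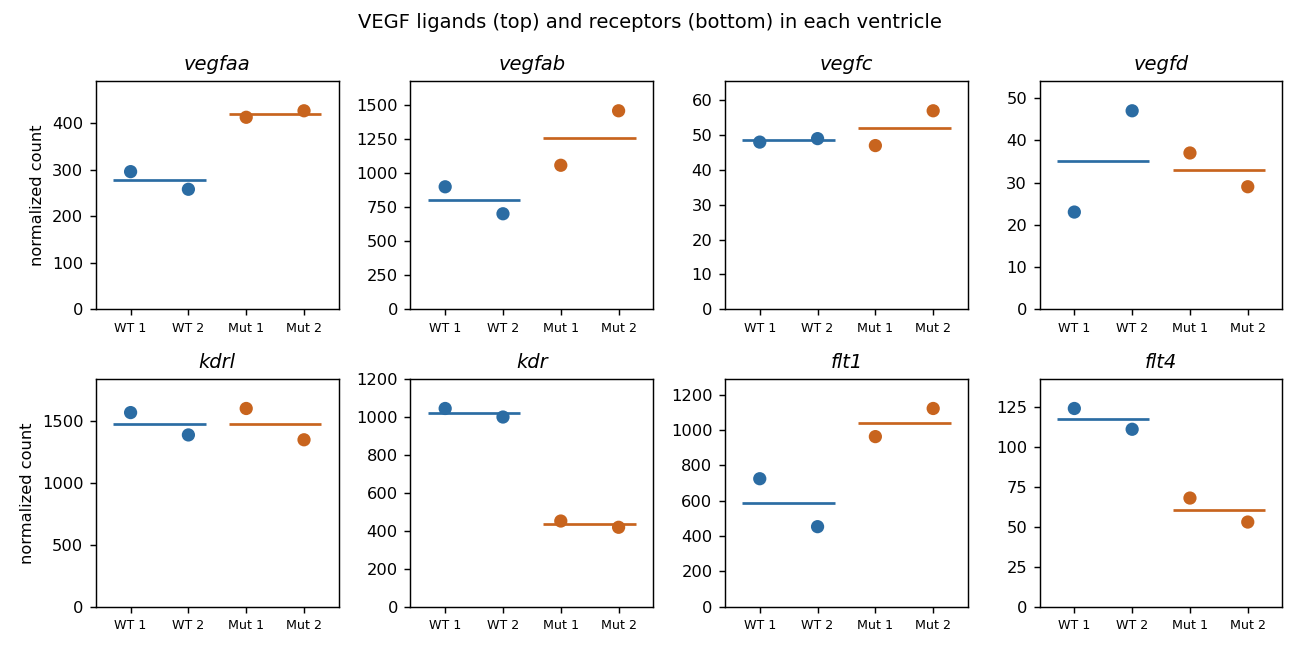
Normalized counts (y axes, from 0) of the 4 VEGF ligands and the 4 receptors in each ventricle (x axes; WT, wild type in blue; Mut, *cd74a; cd74b* mutant in orange), with a horizontal line at the mean of each genotype. The mutants sit at 452 and 419 against 1045 and 1000 for *kdr*, while *kdrl* overlaps between genotypes.

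Among the receptors, *kdr* (ENSDARG00000017321, chromosome 20, 22220988 to 22277544, forward strand) had 1045 and 1000 normalized counts in wild types against 452 and 419 in mutants. Ventricles of 1 genotype were close together, and the genotypes were far apart. The log2 fold change was -1.23 (SE 0.14, 95% interval -1.56 to -0.90, limma adjusted p-value 0.00751), that is, the wild types were 2.35-fold higher. Of the 8 members, 1 was called lower (12.5%), against 7.44% of all genes tested, and 0 were called higher, against 2.70% (10.1% in either direction). At an unadjusted limma p under 0.05 there were 2 members lower and 3 higher, and 29.0% of all genes tested in either direction. The genotypes did not overlap for 5 of the 8 members, 2 lower in mutants (29.4% of all genes tested) and 3 higher (30.5%), a share close to the 59.9% of all genes that did not overlap. In whole ventricles, fewer cells that express a gene and less of its RNA per cell cannot be told apart. With 1 ventricle left out at a time, the *kdr* log2 fold change stayed between -1.29 and -1.18, although with 3 ventricles no gene in the table passed the adjusted threshold (2148 to 3323 genes had an unadjusted p under 0.05). Without the filter on low counts the limma adjusted p-value of *kdr* was 0.0518.

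*kdrl* (ENSDARG00000105215, chromosome 14, 32983769 to 33044955, reverse strand), the other Vegf receptor 2 gene and a common endothelial marker, had 1564 and 1384 in wild types against 1597 and 1345 in mutants. Each genotype had a higher first and a lower second ventricle over nearly the same range. The log2 fold change was -0.01 (SE 0.15, 95% interval -0.36 to 0.35, limma adjusted p-value 0.984), and this interval does not reach that of *kdr*. The comparison between the paralogs was also made within each ventricle, where library size cancels. The ratio of *kdr* to *kdrl* was 0.668 and 0.723 in wild types against 0.283 and 0.312 in mutants. It fell by 1.23 on the log2 scale against a spread within genotypes of 0.089 (exact permutation p = 0.33, two-sided, the smallest this design can give). The authors excluded reads that aligned to several regions, and how many reads that removed from either gene was not tested.

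*flt1* (ENSDARG00000019371, chromosome 24, 21750810 to 21808819, reverse strand), the Vegfa decoy receptor, had 724 and 453 in wild types against 962 and 1121 in mutants. All mutant values were above the wild-type values, but the wild types differed strongly from each other. The log2 fold change was 0.86 (SE 0.23, 95% interval 0.32 to 1.39, limma adjusted p-value 0.0568). The gene lay at the edge of the threshold, since 3 of 4 other scalings of the libraries gave limma adjusted p-values of 0.0431 to 0.0474, cyclic loess gave 0.0593 and a minimum mean of 50 gave 0.0497. Leaving out the ventricles in turn moved its log2 fold change between 0.52 and 1.195.

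*flt4* (ENSDARG00000104453, chromosome 14, 15816509 to 15956921, reverse strand), a receptor for Vegfc, had 124 and 111 in wild types against 68 and 53 in mutants. The mutants reached 51.5% of the wild-type mean with no overlap. The log2 fold change was -0.96 (SE 0.27, 95% interval -1.58 to -0.34, limma adjusted p-value 0.0628), and no setting tried brought it past the adjusted threshold. *flt4* and *kdrl* share chromosome 14 with the edited *cd74a*, 12.8 and 29.9 Mb away. The gene called nearest to *flt4* was *pcdh12*, 352 kb away, and the 1 nearest to *kdr* lay 1570 kb away. *arnt*, described among the hypoxia genes, was the called gene nearest to *vegfaa*, at 253 kb.

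**Figure D2:**
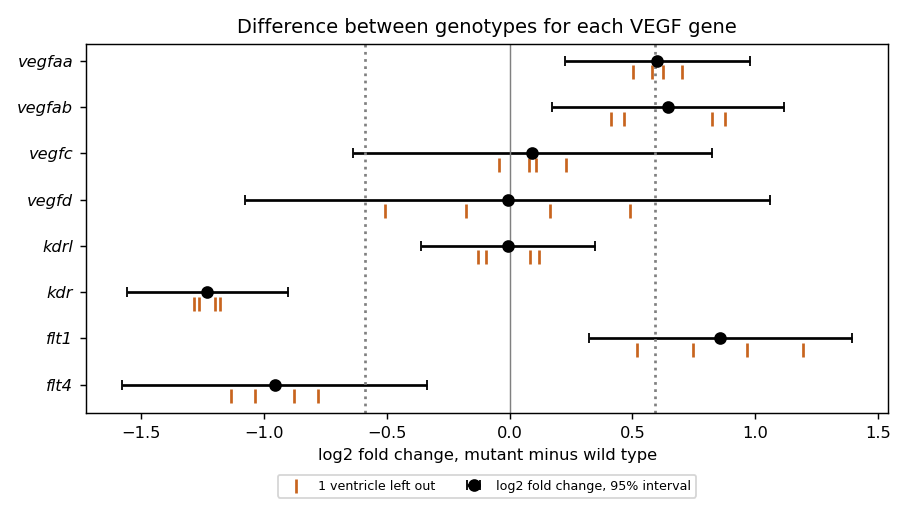
Log2 fold change (x axis, mutant minus wild type, log2 of normalized count + 1) of each VEGF gene (y axis), with limma's 95% interval as a bar, orange ticks for the values with 1 ventricle left out, and dotted lines at the limits of 0.59 in either direction. *kdr* lies at -1.23 with closely spaced ticks, and *vegfd* has the widest interval, from -1.08 to 1.06.

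Ratios between genes were also taken within ventricles. Per unit of *kdr*, *vegfaa* stood at 0.283 and 0.258 in wild types against 0.914 and 1.02 in mutants. For *vegfab* the same ratio was 0.859 and 0.700 against 2.34 and 3.47. The ratio of *flt1* to *kdrl* was 0.463 and 0.327 in wild types against 0.602 and 0.833 in mutants. That of *flt4* to *kdrl* was 0.0793 and 0.0802 against 0.0426 and 0.0394. None of these ratios overlapped between genotypes, and each had the smallest exact permutation p-value that the design allows, 0.33. Except for *kdrl*, they were built from genes whose own counts already did not overlap, as held for 59.9% of all genes tested. Their separation is therefore not independent of the counts above. Ratios to the endothelial receptor gene *tie1*, a marker of vessels and endocardium, did not overlap either, with *kdr* at 0.831 and 0.799 against 0.400 and 0.377.

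**Figure D3:**
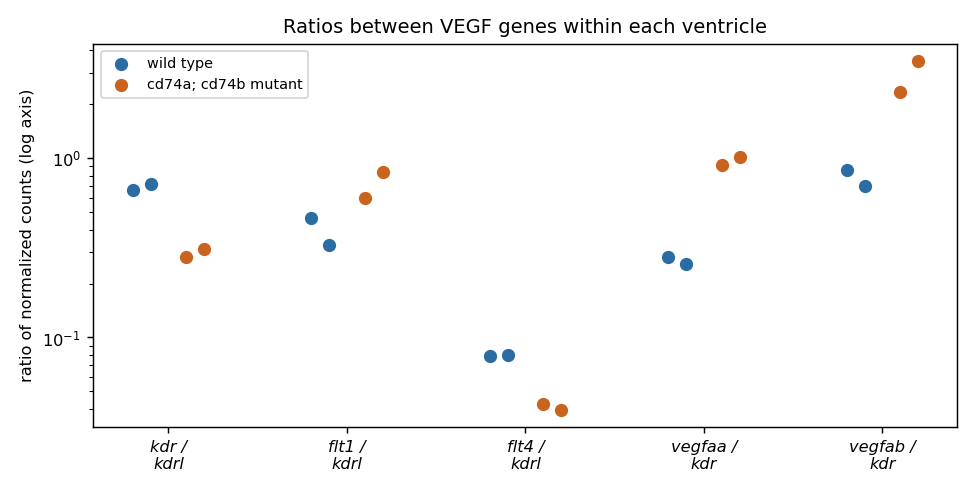
Ratios of normalized counts within each ventricle (y axis, log scale) for 5 pairs of VEGF genes (x axis), with wild types in blue and *cd74a; cd74b* mutants in orange. The ratio of *kdr* to *kdrl* lies at 0.668 and 0.723 in wild types against 0.283 and 0.312 in mutants, and the ratios of the Vegfa ligands to *kdr* lie higher in the mutants.

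The genes with the pattern most like that of *kdr* over the 4 ventricles, by Euclidean distance between centred log2 values, were the potassium channel gene *kcnj12a* (distance 0.046), a clone-named gene, *si:dkey-246g23.2* (0.061), and *zfyve28* (0.070). *kcnj12a* had 54 and 52 normalized counts in wild types against 23 and 22 in mutants. With only 4 ventricles, any gene with a like difference and a small spread comes close.

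Endothelial markers did not follow *kdr* as a group. Of the 18 tested, 2 were called lower and 3 higher, against 7.44% and 2.70% of all genes tested. Their median log2 fold change was 0.08, against 0.03 over all genes tested. *vwf*, which encodes the clotting factor carrier of endothelium, fell from 3299 and 2985 to 1939 and 1710, and the tight junction gene *cldn5a* fell from 163 and 200 to 97 and 50. *cldn5b* (141 and 195 against 349 and 410), the adhesion gene *pecam1* (285 and 259 against 542 and 529) and the transcription factor gene *sox18* (194 and 154 against 361 and 286) rose. The pan-endothelial genes *cdh5* (1815 and 2171 against 1685 and 1427) and *fli1a* (962 and 983 against 969 and 1016) did not pass the test. Summed normalized counts of the list reached 12037 and 11870 in wild types against 11195 and 10900 in mutants. The *vwf* mean alone fell from 3142 to 1824.5, by more than the sum did, so the other markers together did not fall. None of the 11 endocardial markers was called by limma, and their log2 fold changes ran from -0.24 to 0.65. Of these 11, 0 had an unadjusted limma p under 0.05, against 29.0% of all genes tested. The most abundant were *spock3* (1566 and 1699 against 1660 and 1918), the retinoic acid enzyme gene *aldh1a2* (1187 and 1309 against 1026 and 1201) and *gata5* (1092 and 1148 against 1149 and 1305). Of the 9 coronary, arterial and venous markers 1 was called lower (11.1%, against 7.44% of all genes tested). This was the Notch receptor gene *notch1b*, which fell from 1404 and 1348 normalized counts to 613 and 482 (a log2 fold change of -1.34, SE 0.16, limma adjusted p-value 0.00907). Which cells of the ventricle this fall came from was not tested.

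Of the 10 lymphatic endothelial markers tested, 3 were called lower and 0 higher by limma, against 7.44% and 2.70% of all genes tested. At an unadjusted limma p under 0.05 there were 4 lower and 1 higher, and 29.0% of all genes tested in either direction. The median log2 fold change of the list was -0.72. The scavenger receptor genes *stab1* (981 and 950 against 341 and 313) and *stab2* (410 and 309 against 120 and 156) and the mannose receptor gene *mrc1a* (140 and 100 against 48 and 33) fell, with log2 fold changes of -1.56, -1.37 and -1.55. These receptors take up waste molecules and are also made by venous endothelium, and in mammals by macrophages, whose markers were lower in the same mutants. Their part in these values was not tested. *prox1a*, which encodes the transcription factor of lymphatic identity and is also expressed in heart muscle, had 644 and 391 against 374 and 462 and did not pass. *lyve1b*, a defining lymphatic marker in zebrafish, was near the floor, with 8 and 37 against 9 and 14. *lyve1a* had 50 and 30 in wild types against 86 and 134 in mutants (log2 fold change 1.45, limma adjusted p-value 0.051).

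The co-receptors of VEGF are the neuropilins, which bind VEGF beside its receptors and also serve semaphorins. Of 4 tested, 1 was called lower (25%, against 7.44% of all genes tested). This was *nrp1b*, which fell from 154 and 134 normalized counts to 54 and 32 (a log2 fold change of -1.76, SE 0.32, limma adjusted p-value 0.0209). *nrp1a* had 631 and 699 against 482 and 290, which missed the threshold (log2 fold change -0.83, adjusted p-value 0.0698), and *nrp2a* and *nrp2b* had log2 fold changes of -0.26 and 0.21. The list of Vegfc processing genes and their partners gave 1 call, lower, among 7 genes tested (14.3%, against 7.44% of all genes tested). The protease gene *adamts3* fell from 59 and 63 normalized counts to 14 and 6 (a log2 fold change of -2.60, SE 0.50, limma adjusted p-value 0.024). Its partner *ccbe1*, which brings the protease and Vegfc together, had 13 and 36 against 29 and 33 with overlap, and *adamts14*, a related protease, had 20 and 28 against 11 and 3 (adjusted p-value 0.137). A list of receptor partners, phosphatases and junction proteins held 9 tested genes. Of these, 1 was called lower (11.1%, against 7.44% of all genes tested) and 2 higher (22.2%, against 2.70%). The receptor phosphatase gene *ptprja* fell from 329 and 257 to 106 and 84. *pecam1*, given above, and *cd248a* (853 and 800 against 1198 and 1330) rose. *ptprb*, the vascular endothelial phosphatase gene, had 2391 and 1986 against 1876 and 1971 and was not called.

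In the angiopoietin and Tie list, which acts beside VEGF in vessel maturation, 1 of 6 genes was called. It was higher in mutants (16.7%, against 2.70% of all genes tested). *angptl4*, a secreted lipase inhibitor induced by hypoxia and fasting, rose from 400 and 502 to 769 and 1119 (log2 fold change 1.05, SE 0.21, limma adjusted p-value 0.0272). The Tie receptor gene *tek* had 830 and 537 against 897 and 1273, *tie1* 1258 and 1251 against 1131 and 1112, and the ligand gene *angpt1* 373 and 337 against 493 and 490, and none of these passed. Among 14 oxygen sensing genes, 2 were called lower (14.3%, against 7.44% of all genes tested) and 1 higher (7.14%, against 2.70%). *arnt*, which encodes a partner of the hypoxia-inducible factors, fell from 174 and 197 to 14 and 3. Its paralog *arnt2* had 574 and 472 in wild types against 449 and 444 in mutants. *arnt2* was not called (log2 fold change -0.22, limma adjusted p-value 0.398). The prolyl hydroxylase gene *egln2* fell from 266 and 203 to 49 and 38. *egln3*, a prolyl hydroxylase gene known as a hypoxia target in mammals, rose from 216 and 168 to 416 and 710 (log2 fold change 1.51, limma adjusted p-value 0.0199). The genes for the oxygen-regulated subunits were not called, among them *hif1ab* (1417 and 1258 against 1555 and 1836), *hif1al* (1064 and 1268 against 1348 and 1552) and *epas1b* (1387 and 1689 against 1265 and 1163).

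Genes that VEGF induces in endothelium, or that mark sprouting vessels, gave 4 genes called higher (23.5% against 2.70% of all genes) and 0 called lower among 17 tested by limma. At an unadjusted limma p under 0.05 there were 6 higher and 2 lower, and 29.0% of all genes tested in either direction. The genotypes did not overlap for 8 genes higher and 2 lower in mutants. Over all genes tested these shares were 30.5% and 29.4%, or 59.9% together, so the lack of overlap is not particular to this list. *dll4*, the Notch ligand of tip cells, rose from 324 and 244 to 562 and 554 (log2 fold change 0.99, SE 0.18, limma adjusted p-value 0.0214). *esm1*, a secreted proteoglycan of tip cells, rose from 10 and 10 to 42 and 50 (log2 fold change 2.09). The early response genes *egr1* (333 and 156 against 749 and 556) and *nr4a1* (243 and 181 against 483 and 707) also rose. Many stimuli other than VEGF induce both. The 2 genes that lay below both wild types in both mutants, named after their values were seen, were not called. The netrin receptor gene *unc5b* had 20 and 52 against 8 and 5 (log2 fold change -2.18, limma adjusted p-value 0.0708), and the calcineurin regulator gene *rcan2* had 210 and 218 against 147 and 96 (log2 fold change -0.84, limma adjusted p-value 0.0724). The most abundant genes of the list that were not called were *mmp2* (1603 and 1718 against 1592 and 1604), the calcineurin regulator gene *rcan1a* (1233 and 1039 against 1178 and 1149) and the chemokine gene *cxcl12b* (660 and 676 against 935 and 755). Of the remaining ligands of the family, *pgfb* had 15 and 8 against 20 and 23 (limma adjusted p-value 0.315), and *vegfba*, with 10 and 7 against 16 and 4, was under the minimum mean.

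**Figure D4:**
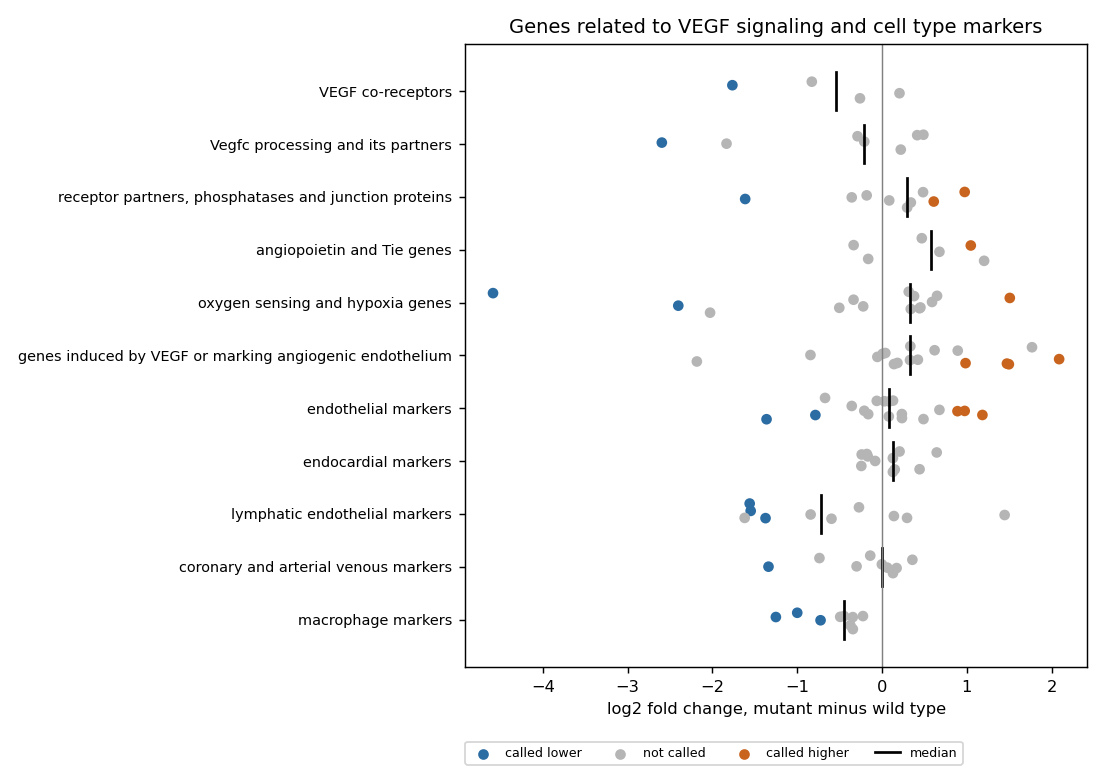
Log2 fold change (x axis, mutant minus wild type) of each tested gene in 11 lists related to VEGF signaling and cell types (y axis), with a vertical bar at the median of each list, blue points for genes called lower, orange for genes called higher and grey for the rest. Points are shifted vertically for display only. Genes induced by VEGF have 4 called higher and 0 called lower, and lymphatic markers 3 called lower. Of all genes tested, 2.70% were called higher and 7.44% lower.

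Downstream of the receptors, 75 genes carried the KEGG annotation VEGF signaling pathway, among them *vegfaa*, *vegfab* and *kdr* but not the other 5 members. Of the 69 tested, 15 were called lower (21.7% against 7.44% of all genes) and 0 higher, and 1 of the 15 was *kdr* itself. At an unadjusted limma p under 0.05 there were 19 lower and 7 higher, and 29.0% of all genes tested in either direction. The pathway was picked with results of these libraries known, so its count is not independent evidence of a direction. Without its ligands and receptor the pathway had 14 of 66 genes lower and a median log2 fold change of -0.16, against 0.03 over all genes.

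The called genes named here are given by step of the cascade, beside paralogs of the same step that were picked after their values were seen. In the PI3K and Akt group, 3 of 16 were called lower (18.8%, against 7.44% of all genes tested). *pik3ca*, a catalytic subunit of PI3K, fell from 249 and 265 normalized counts to 32 and 13 (a log2 fold change of -3.59, SE 0.41, limma adjusted p-value 0.00791). Another catalytic subunit gene, *pik3cb*, had 611 and 477 against 541 and 536. *pik3cd* (110 and 138 against 39 and 17) and *pik3cg* (517 and 527 against 314 and 272), which are leukocyte subunits in mammals, also fell. Of the Akt kinases none was called, and *akt1* (46 and 41 against 13 and 14) lay opposite to *akt2* (696 and 624 against 926 and 1014), with adjusted p-values of 0.0516 and 0.0522.

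In the phospholipase C and protein kinase C group, 3 of 6 were called lower (50%, against 7.44% of all genes tested). *plcg2*, which in mammals acts mainly in blood cells, fell from 362 and 252 to 104 and 74, and *prkcab* (49 and 46 against 12 and 6) and *prkcba* (142 and 72 against 38 and 30) fell. The paralog *prkcbb* also lay lower in both mutants, with 202 and 121 against 108 and 94, but was not called. *plcg1*, which couples Vegf receptor 2 to Erk in zebrafish vessels, had 733 and 566 against 687 and 652 and a log2 fold change of 0.05 (95% interval -0.34 to 0.45). In the Ras to Erk cascade, the GTPase gene *kras* fell from 163 and 131 normalized counts to 62 and 52. The most abundant kinase genes of this cascade that were not called overlapped between genotypes. These were *mapk3* (556 and 487 against 503 and 521), *map2k1* (530 and 455 against 465 and 571) and *map2k2a* (494 and 432 against 440 and 456).

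Of the calcineurin and NFAT genes, *ppp3r1a* (112 and 113 against 35 and 9) and *nfatc2a* (117 and 104 against 23 and 14) fell, and the paralog *ppp3r1b* had 519 and 506 against 558 and 661. The phospholipase A2 gene *pla2g4aa* fell from 209 and 267 to 37 and 10. Among the Src and focal adhesion genes, the kinase gene *src* (84 and 79 against 26 and 15), the paxillin gene *pxnb* (174 and 121 against 16 and 14) and the leukocyte GTPase gene *rac2* (468 and 443 against 242 and 237) fell. Of their paralogs, *pxna* had 558 and 535 against 685 and 731 and *rac1a* 583 and 590 against 581 and 634. The paralog *rac1b* lay lower in both mutants, with 375 and 347 against 260 and 193, but was not called. None of the 8 p38 and Hsp27 genes was called by limma, and 0 had an unadjusted p under 0.05. The 15 lower genes had a median of 102 over their mean normalized counts. Over the 66 tested pathway genes that are neither ligand nor receptor, 14 of them called lower, the median was 164.5. A mean under 300 was held by 12 of the 15 and by 39 of the 66. These means include the mutants, so a fall in mutants lowers them by itself. Whether the called genes were less abundant in wild types cannot be read from these medians. Summed macrophage and neutrophil marker counts were lower in the same mutants, as given above, and their part in these calls was not tested.

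**Figure D5:**
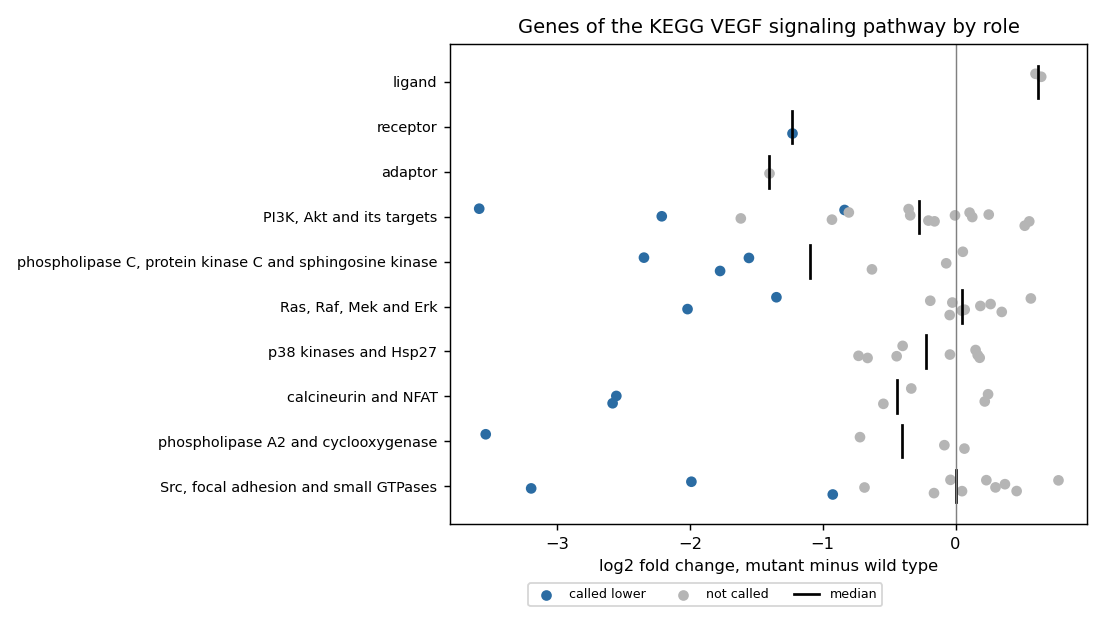
Log2 fold change (x axis, mutant minus wild type) of each tested gene of the KEGG VEGF signaling pathway, grouped by role (y axis), with a vertical bar at the median of each group, blue points for genes called lower and grey points for genes not called. Points are shifted vertically for display only. The ligands lie at 0.60 and 0.65, the receptor *kdr* at -1.23, and the called genes reach -3.59 (*pik3ca*).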

How the data were processed

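Bulk RNA-seq of 2 wild-type and 2 *cd74a; cd74b* mutant ventricles was analysed from the table deposited by the authors. The authors deposited a score per gene, made by dividing read counts by a size factor for each library and rounding the quotient. Per the labels and methods, reads were trimmed with Trimmomatic 0.39, aligned to danRer11 (Ensembl annotation) with STAR 2.7.9a, counted over exons with featureCounts 2.0.2 without reads shared by several genes or regions, and normalized with DESeq2 1.30.0. Count tests were not run on these rounded values.

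Genes averaging 10 or more normalized counts were fitted with limma 3.58.1 in R 4.3.3 on log2(normalized count + 1), letting the prior variance follow the mean (5.33 prior degrees of freedom). A call needed a Benjamini-Hochberg adjusted p-value, over 16065 genes, below 0.05 and a log2 fold change of 0.59 or more in either direction. P-values rest on the spread between these ventricles only, which limma shares among genes. Totals per ventricle were 4123819 to 4382529 normalized counts, which limits precision for genes with few counts. The script was tested on simulated data. Same-numbered ventricles come from different animals, and their deviations correlated at -0.066 across genes, so no block was used.

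Members, lists and tests were chosen with earlier results of these data known. Named are all members, the called genes of the fixed lists and of the KEGG pathway (1 of them is not reported here), and the 3 most abundant uncalled genes of a list, with further genes where a paralog or partner is compared, which were chosen after their values were seen. The lists not described in the text gave calls in 0 of 8 mural and 0 of 9 epicardial and fibroblast genes. They also gave 1 lower of 9 cardiomyocyte (*ttn.1*), 1 lower of 4 lymphocyte (*cd4-1*) and 1 lower of 11 erythrocyte and thrombocyte (*hbba1*) rows. These 9 and 11 rows stand for 8 and 10 genes. The called row of *hbba1* had 263 and 326 in wild types against 137 and 121 in mutants. Its other row had 213 and 274 against 200 and 229 (limma adjusted p-value 0.603). Over all genes tested, 7.44% were called lower and 2.70% higher. Alternatives were other pseudocounts, filters, scalings, variance models, fold-change limits, a replicate block and leaving out each ventricle. Sequences were not used here.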

Additional observations from a re-analysis of the deposited data

How the results depend on the processing

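All values here come from limma with Benjamini-Hochberg adjustment. Under the 17 alternatives *kdr* stayed lower in mutants, with log2 fold changes from -1.35 to -1.18. It lost its call without a filter (adjusted p-value 0.0518, log2 fold change -1.23) and with any ventricle left out. *vegfaa*, *vegfab*, *flt1* and *flt4* kept their direction in every alternative. Of these, only *flt1* was called in any, with a minimum mean of 50 (log2 fold change 0.86) and with libraries scaled to the same total (0.83), by a trimmed mean of log ratios (0.85) or to the same upper quartile (0.80), which makes 1 member called higher under each of these 4. *vegfd* changed sign with cyclic loess (0.28). Leaving out 1 ventricle gave log2 fold changes of 0.50 to 0.70 for *vegfaa*, 0.41 to 0.88 for *vegfab*, -0.044 to 0.23 for *vegfc*, -0.51 to 0.49 for *vegfd*, -0.13 to 0.12 for *kdrl*, -1.29 to -1.18 for *kdr*, 0.52 to 1.195 for *flt1* and -1.13 to -0.78 for *flt4*. All counts of called genes were 0 then, in fits with 1 residual degree of freedom.

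Without a filter all counts were also 0, members called lower among them, with 5015 genes at an unadjusted p under 0.05. Without the mean-variance trend, 461 genes were lower and 82 higher, with 5 lower in the KEGG pathway and 3 lower and 1 higher in the fixed lists (main counts 1196, 434, 15, 19 and 10). The replicate block left 740 lower and 215 higher genes, and it changed no call among the members (*kdr* at -1.23, adjusted p-value 0.0271). A log2 fold change of at least 1 left 238 higher genes and 6 higher genes of the fixed lists. The causes were not tested. Depth limits *vegfc* and *vegfd* most.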
